A study of Mus musculus with 7 samples.

Results

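The genes described here are the MHC class II genes of the mouse, their transactivator gene Ciita and their peptide-loading partners: H2-Aa, H2-Ab1, H2-Eb1, Cd74, Ciita, H2-DMa, H2-DMb1 and H2-Oa. They were chosen by name, as all probe sets annotated to exactly 1 of these 8 symbols. This gave 15 of the 45037 probe sets on the array, for 7 of the 8 genes. H2-DMb1 had 0 such probe sets, because the 2 probe sets that list it also list H2-DMb2, and its level is not given here.

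Expression was measured on 7 Affymetrix mouse arrays, 1 for each suspension of leukemic cells from terminally ill C57Bl/6 mice. The TEL-JAK2 group held 4 arrays of cells from leukemic thymus, where a fusion of the TEL oligomerization region to the kinase JAK2 keeps the kinase active. The ICN1 group held 3 arrays of cells from leukemic bone marrow, where the activated intracellular part of NOTCH1 drives the disease. The series asks how the transcriptomes of these T-cell leukemias differ. Healthy thymus, healthy marrow and sorted cells were not among the arrays analysed here, and no sorting step is named. The sources used here give neither the promoter behind TEL-JAK2 and ICN1 expression nor the ages of the mice. Each leukemia came from 1 tissue, so genotype and tissue cannot be told apart in any difference below. The labels do not state outright that the arrays of a group are separate animals, so a p-value here speaks of the spread among these suspensions, which may be technical.

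MHC class II molecules show peptides from endocytosed protein to CD4+ T cells. An alpha and a beta chain pair in the endoplasmic reticulum around the invariant chain, CD74, which is later cut down to a short peptide, CLIP, in the groove. H2-DM then exchanges CLIP for other peptides, and H2-O restrains H2-DM. In mice the genes are expressed mainly in dendritic cells, B cells, macrophages and thymic epithelium, whereas mouse T cells, unlike activated human T cells, express little or none. CIITA does not bind DNA itself. It is recruited to a shared promoter module by the RFX complex on the X box and by NF-Y on the Y box.

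Promoter sequence was taken from RefSeq on GRCm38.p6, from 250 bases before to 50 bases after each annotated gene start, and the X and Y box letters are shown because CIITA acts on these genes through them. The search was for GNAAC, the core of the X box, followed after 20 to 30 bases by GATTGG, the Y box, on the strand of the gene. These letters and this spacing were set after the promoters of these genes had been read, so the matches describe them and test nothing. Of the 5 listed genes with an entry, 4 held the pair, with 26 or 27 bases between the boxes, and so did 2 of 3 further class II genes, with 24 bases in H2-Ob and 26 in H2-Eb2. Capitals mark the GNAAC and GATTGG letters, and each line runs 5′ to 3′ on the strand of the gene.
H2-Aa: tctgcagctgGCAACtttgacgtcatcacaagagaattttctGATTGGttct
H2-Eb1: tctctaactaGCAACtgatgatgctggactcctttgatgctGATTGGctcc
H2-DMb1: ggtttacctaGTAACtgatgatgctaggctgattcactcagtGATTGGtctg
H2-Oa: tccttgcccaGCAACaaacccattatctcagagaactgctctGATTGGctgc
H2-Ob: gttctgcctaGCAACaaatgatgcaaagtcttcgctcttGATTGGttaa
H2-Eb2: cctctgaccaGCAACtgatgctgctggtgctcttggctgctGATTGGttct

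The promoter windows lie on chromosome 17 at chr17:34287774-34288073 (minus strand, H2-Aa), chr17:34305617-34305916 (plus strand, H2-Eb1), chr17:34152941-34153240 (plus strand, H2-DMb1), chr17:34092129-34092428 (plus strand, H2-Oa), chr17:34238655-34238954 (plus strand, H2-Ob) and chr17:34325425-34325724 (plus strand, H2-Eb2). Counted from the annotated gene start, the first base of the X box core lay at -81 in H2-Aa, -91 in H2-Eb1, -94 in H2-DMb1, -76 in H2-Oa, -87 in H2-Ob and -132 in H2-Eb2. In the H2-DMa windows, at 2 annotated starts (chr17:34122582-34122881 and chr17:34125268-34125567, plus strand), and in that of H2-DMb2 (chr17:34144999-34145298, plus strand), these letters were not found at this spacing. H2-Ab1, Ciita and Cd74 were not searched. Counted on both strands over all 32851 promoters of the same length, GNAAC alone occurred in 84.8% and GATTGG alone in 16.1%, while the spaced pair occurred in 0.651% on either strand and in 0.323% on the strand of the gene. H2-Aa and H2-Oa represent a chain of the surface molecule and of its accessory proteins, and their whole windows are printed because their group differences are described in full below.
H2-Aa: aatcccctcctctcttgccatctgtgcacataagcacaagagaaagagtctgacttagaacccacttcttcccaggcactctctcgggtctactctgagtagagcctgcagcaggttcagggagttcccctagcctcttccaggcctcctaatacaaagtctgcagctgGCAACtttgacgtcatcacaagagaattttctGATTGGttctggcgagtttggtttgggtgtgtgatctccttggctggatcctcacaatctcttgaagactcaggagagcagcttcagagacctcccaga
H2-Oa: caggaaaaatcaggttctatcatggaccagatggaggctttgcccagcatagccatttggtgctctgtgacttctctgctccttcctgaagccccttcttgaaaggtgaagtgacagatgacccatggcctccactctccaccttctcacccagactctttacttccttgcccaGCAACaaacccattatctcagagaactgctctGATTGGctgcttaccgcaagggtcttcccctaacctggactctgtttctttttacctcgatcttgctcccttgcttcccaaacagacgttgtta

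**Figure D1:**
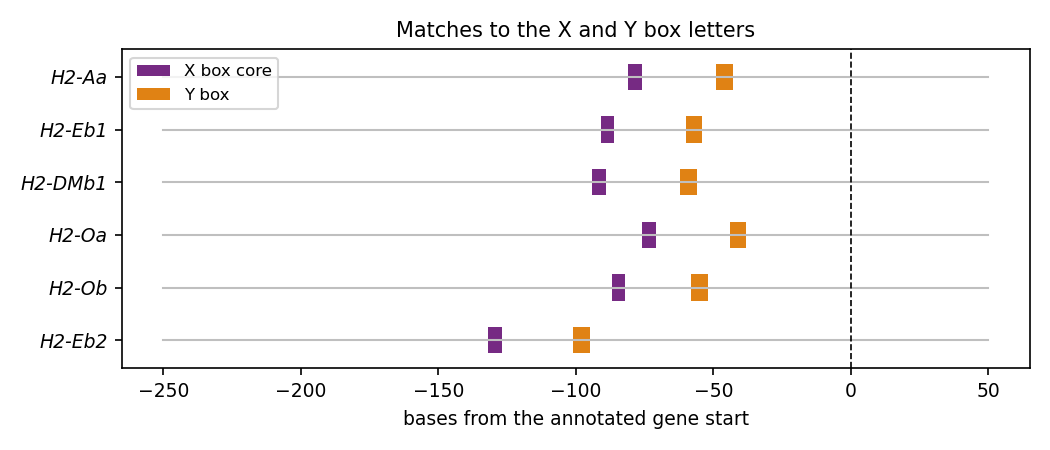
Position of the letters GNAAC (X box core, purple) and GATTGG (Y box, orange) in bases from the annotated gene start (dashed line), in the 4 listed genes and 2 further class II genes that held both; grey lines show the window searched, from 250 bases before to 50 bases after the start. The X box core begins between -94 and -76 in the first 5 genes and at -132 in H2-Eb2.

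Values are RMA log2 expression, in which 1 unit is a doubling, and a probe set's level is not comparable with that of another probe set. Differences are TEL-JAK2 minus ICN1 from a limma fit over the 18193 genes with a probe set of 1 symbol, each gene represented by its brightest such probe set, or over all 45037 probe sets where single probe sets are compared. A gene was called where its Benjamini-Hochberg adjusted p was under 0.05. Array medians were 5.4 to 5.5. Pearson's r over all probe sets was 0.975 to 0.989 within TEL-JAK2, 0.973 to 0.982 within ICN1 and 0.921 to 0.944 between the groups. ICN1 replicates 1 and 2 held both Xist (11.51 and 11.78) and the Y-linked transcript Eif2s3y (8.93 and 9.41), so transcripts typical of female and of male cells were both present in these suspensions. Their source, and its part in the class II values of these arrays, was not tested. TEL-JAK2 replicate 4 held Eif2s3y (10.23) with little Xist (5.19), and the other 4 arrays held Xist (12.09 to 13.36) with Eif2s3y at 3.18 to 3.29. Results without ICN1 replicates 1 and 2 are given below. T-cell genes were high on every array: the 10 measured markers averaged 11.79 to 12.16 on the TEL-JAK2 arrays and 11.20 to 11.60 on the ICN1 arrays, with 6 called higher and 1 lower in TEL-JAK2 (median difference 0.61), where 11.9% of all genes were called higher and 12.2% lower. As the CD3 genes themselves were higher in TEL-JAK2, centring the arrays on Cd3d, Cd3e, Cd3g and Cd247 lowered every difference by 0.62. In that fit 2 of these T-cell markers were called higher and 1 lower, where 4.33% of all genes were called higher and 62.7% lower, and its counts are given beside those of each list they change.

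All 7 measured genes had a higher mean in TEL-JAK2 than in ICN1 leukemia, and 6 of the 7 differed by at least 2-fold, against 6.54% of all genes that were at least 2-fold higher. This rests on ICN1 replicate 3: without that array the differences were 0.44 to 1.91, and only H2-DMa stayed at least 2-fold higher. Over all arrays only H2-DMa and H2-Oa passed the test, 2 of 7 genes, where 24.1% of all genes were called in either direction and 11.9% were called higher. With the CD3 centring the same 2 were called, H2-DMa at 1.78 (adjusted p 0.0128) and H2-Oa at 0.72 (adjusted p 0.0386). The groups did not overlap for these 2 genes, and 34.3% of all genes had groups that did not overlap, 18.4% with TEL-JAK2 higher. The median difference of the 7 genes was 1.63, against 0.04 for all genes tested. By single probe sets, 3 of 15 were called, against 19.6% of all probe sets called, and the same 3 were the ones whose groups did not overlap, against 30.7% of all. In the 5 genes that were not called, TEL-JAK2 replicate 3 lay below ICN1 replicates 1 and 2.

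**Figure D2:**
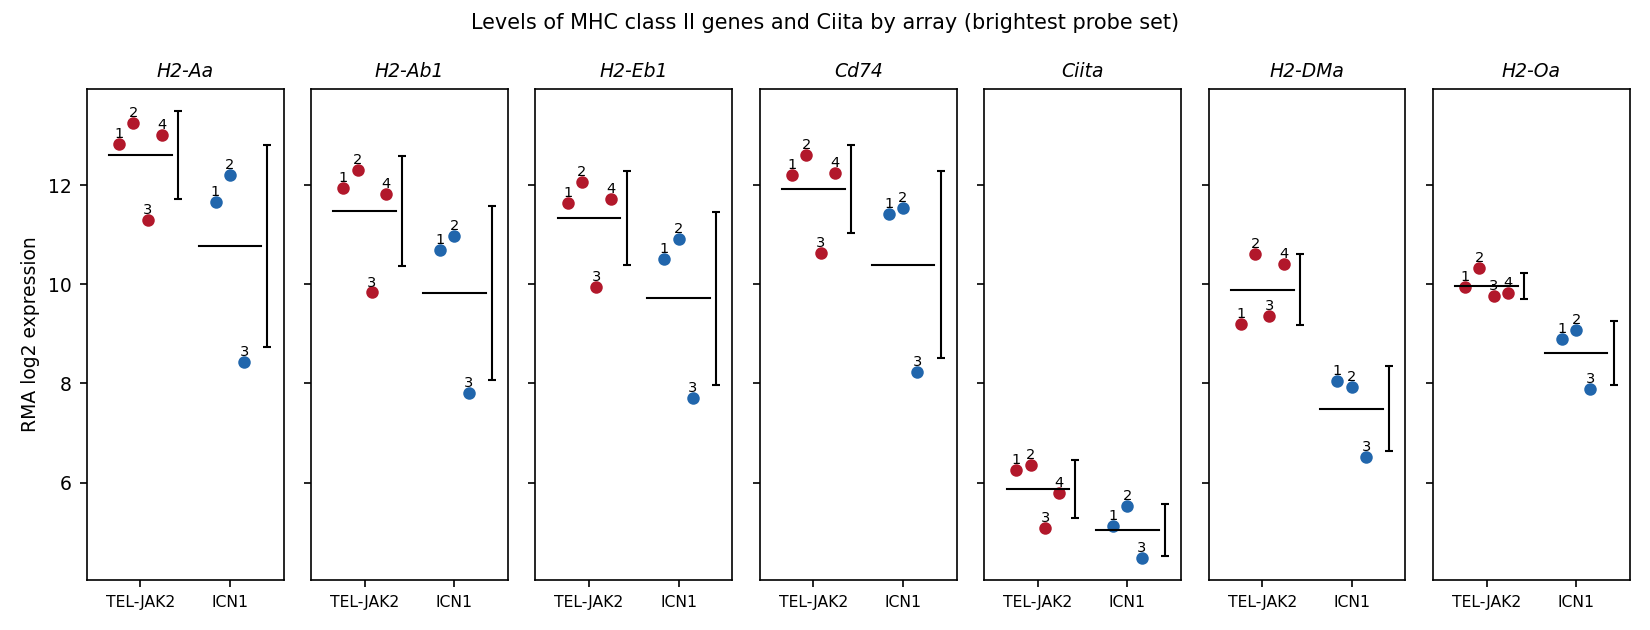
RMA log2 expression of the 7 measured genes by array, each gene by its brightest probe set; red points are the 4 TEL-JAK2 arrays and blue points the 3 ICN1 arrays, numbered by replicate, with the group mean (line) and SD (bar). The groups overlap in H2-Aa, H2-Ab1, H2-Eb1, Cd74 and Ciita, where replicate 3 is the lowest of each group, and are apart in H2-DMa and H2-Oa.

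H2-Aa encodes the alpha chain of I-A, the class II molecule that C57Bl/6 mice carry on the cell surface. Its level was 12.83, 13.25, 11.29 and 13.02 on the TEL-JAK2 arrays, against 11.65, 12.20 and 8.43 on the ICN1 arrays. TEL-JAK2 replicates 1, 2 and 4 were above every ICN1 array, TEL-JAK2 replicate 3 fell below ICN1 replicates 1 and 2, and ICN1 replicate 3 stood far below all others. The means were 12.60 ± 0.89 in TEL-JAK2 and 10.76 ± 2.04 in ICN1 (SD, n = 4 and n = 3). The difference was 1.84 (SE 0.93, 95% interval -0.33 to 4.01, 3.57-fold) with an adjusted p of 0.204, so it did not exceed the spread between arrays. The other 3 probe sets of H2-Aa differed by 1.82 to 1.99, with adjusted p of 0.0836 to 0.245 over all probe sets. Of these, 1443783_x_at had an interval above 0 (0.40 to 3.58), at 6.98, 7.81, 5.15 and 6.82 in TEL-JAK2 and 5.04, 5.51 and 3.56 in ICN1, and it was not called. All 4 probe sets of H2-Aa end in _x_at or _s_at, which marks probes that may cross-hybridize. H2-Aa therefore had no value when such probe sets were left out.

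H2-Ab1 encodes the beta chain that pairs with H2-Aa. It measured 11.93, 12.30, 9.83 and 11.83 in TEL-JAK2, against 10.69, 10.97 and 7.80 in ICN1. The order of the arrays was close to that of H2-Aa, with replicate 3 lowest in both groups. The difference was 1.65 (SE 0.89, 95% interval -0.44 to 3.74, 3.14-fold, adjusted p 0.234). Its other probe sets differed by 1.87 (1451721_a_at, adjusted p 0.206) and 1.64 (1425477_x_at, adjusted p 0.205).

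H2-Eb1 encodes the beta chain of I-E, which has no surface partner in C57Bl/6 mice because their Ea gene carries a deletion at its promoter. Its only probe set measured 11.64, 12.06, 9.94 and 11.71 in TEL-JAK2, against 10.52, 10.91 and 7.71 in ICN1. TEL-JAK2 replicate 3 again lay below ICN1 replicates 1 and 2. The difference was 1.63 (SE 0.84, 95% interval -0.35 to 3.60, 3.09-fold, adjusted p 0.216). H2-Ea, the missing partner, differed by 0.24 (adjusted p 0.396) and lay at 6.71 to 7.05 in TEL-JAK2 and 6.24 to 6.97 in ICN1, a difference that turned to -0.38 when arrays were centred on the CD3 genes. That is the brightest H2-Ea probe set. The others averaged 3.84 and 3.40 over the 7 arrays, below the array medians, and differed by 0.02 (adjusted p 0.952) and -0.13 (adjusted p 0.494).

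Cd74, the invariant chain gene on chromosome 18, measured 12.20, 12.61, 10.62 and 12.23 in TEL-JAK2, against 11.42, 11.54 and 8.23 in ICN1. The groups overlapped only through TEL-JAK2 replicate 3. The difference was 1.52 (SE 0.87, 95% interval -0.52 to 3.56, 2.87-fold, adjusted p 0.260). Leaving out ICN1 replicate 3 took it down to 0.44.

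These 4 genes kept nearly fixed ratios from array to array. While H2-Aa itself ranged over 4.82 log2 units across the 7 arrays, its log2 ratio to H2-Ab1 ranged over 0.83, that to H2-Eb1 over 0.63 and that to Cd74 over 0.58. The ratios of Ciita, H2-DMa and H2-Oa to H2-Aa ranged over 3.28, 2.35 and 2.65. All these values come from the same 7 arrays, and folds of dim probe sets such as those of Ciita are compressed by RMA.

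**Figure D3:**
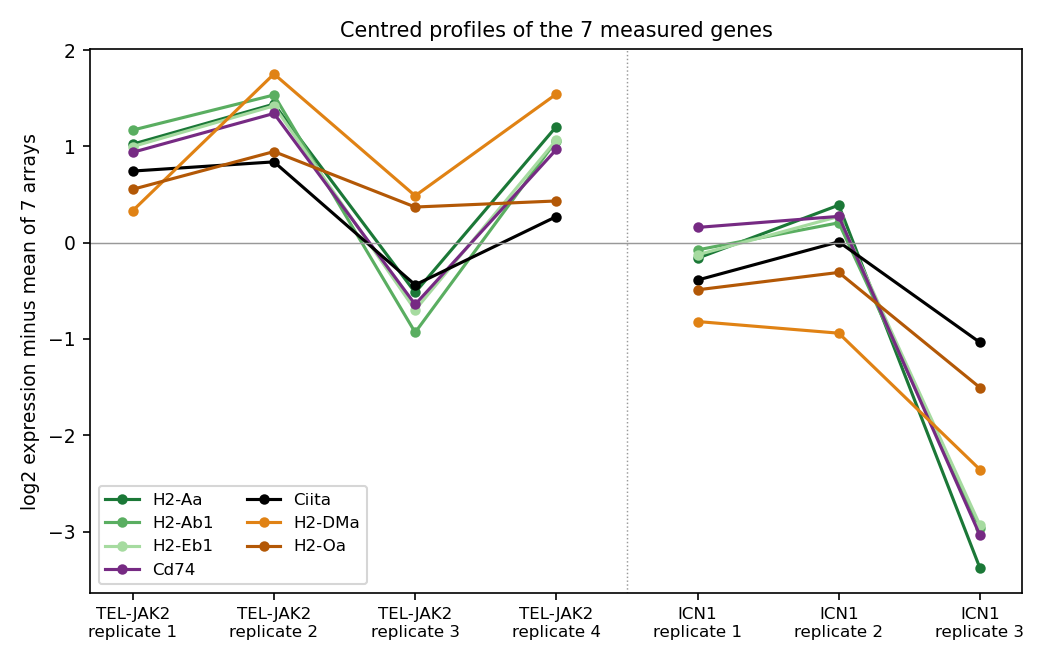
Log2 expression minus the gene's mean over the 7 arrays, for the 7 measured genes, with the 4 TEL-JAK2 arrays left of the dotted line and the 3 ICN1 arrays right of it; lines join the arrays of a group only to guide the eye. H2-Aa, H2-Ab1, H2-Eb1 and Cd74 lie almost on top of each other, with TEL-JAK2 replicate 3 and ICN1 replicate 3 low, while H2-DMa and H2-Oa stay above their means on all TEL-JAK2 arrays.

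The low arrays were shared by most of the genes. ICN1 replicate 3 was the lowest of the 7 arrays in all 15 probe sets. TEL-JAK2 replicate 3 was the lowest of its group in 12 of the 15, the exceptions being both probe sets of H2-DMa and the Ciita probe set 1421211_a_at. By gene, replicate 3 was lowest in both groups for 6 of 7, against 9.17% of all genes. Against the mean of the other TEL-JAK2 arrays, TEL-JAK2 replicate 3 was lower by 1.74 in H2-Aa, 2.19 in H2-Ab1, 1.86 in H2-Eb1, 1.72 in Cd74, 1.06 in Ciita, 0.72 in H2-DMa and 0.27 in H2-Oa. Against the mean of ICN1 replicates 1 and 2, ICN1 replicate 3 was lower by 3.49, 3.03, 3.01 and 3.25 in H2-Aa, H2-Ab1, H2-Eb1 and Cd74, by 0.85 in Ciita, by 1.48 in H2-DMa and by 1.11 in H2-Oa. At the other end, TEL-JAK2 replicate 2 was the highest of all arrays for each of the 7 genes. Replicate numbers only name the arrays and pair nothing across groups.

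Ciita, on chromosome 16, lay close to the array medians. Its brightest probe set, 1421210_at, measured 6.26, 6.36, 5.08 and 5.79 in TEL-JAK2, against 5.13, 5.53 and 4.49 in ICN1. TEL-JAK2 replicate 3 fell just below ICN1 replicate 1, and the other 3 TEL-JAK2 arrays were above every ICN1 array. The means were 5.87 ± 0.58 in TEL-JAK2 and 5.05 ± 0.53 in ICN1, a difference of 0.83 (SE 0.36, 95% interval -0.03 to 1.68, 1.77-fold) that was not called at an adjusted p of 0.150. It was called without TEL-JAK2 replicate 3 (difference 1.09, adjusted p 0.0477). The probe set 1421211_a_at measured 4.87, 5.20, 4.55 and 4.50 in TEL-JAK2, against 4.45, 4.51 and 4.09 in ICN1 (difference 0.43, adjusted p 0.181). The third, 1447075_at, stayed at 3.51 to 3.83 in TEL-JAK2 and 3.38 to 3.66 in ICN1 (difference 0.19, adjusted p 0.314). Centring the arrays on the CD3 genes left the first difference at 0.20 and turned the other ones to -0.19 and -0.43.

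H2-DMa encodes the alpha chain of H2-DM, the peptide exchange factor of the endosome, and showed the widest separation of the 7 genes. Its probe set 1422527_at measured 9.20, 10.62, 9.35 and 10.41 in TEL-JAK2, against 8.05, 7.93 and 6.51 in ICN1. Every TEL-JAK2 array was above every ICN1 array, with TEL-JAK2 replicates 2 and 4 more than 1 unit above the other TEL-JAK2 arrays. The means were 9.89 ± 0.72 in TEL-JAK2 and 7.49 ± 0.85 in ICN1 (SD, n = 4 and n = 3), a rise of 2.40 (SE 0.50, 95% interval 1.23 to 3.57, 5.28-fold, adjusted p 0.0126). The probe set 1459872_x_at measured 5.55, 6.46, 5.58 and 6.16 in TEL-JAK2, against 5.04, 4.50 and 4.31 in ICN1, and was called as well (difference 1.32, adjusted p 0.0148). H2-DMa stayed called in each fit that left out 1 array, at differences of 1.91 to 2.68 and adjusted p of 0.0196 to 0.0318.

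H2-Oa encodes the alpha chain of H2-O, which restrains H2-DM and is known from B cells, thymic epithelium and some dendritic cells. It measured 9.94, 10.33, 9.76 and 9.82 in TEL-JAK2, against 8.90, 9.08 and 7.88 in ICN1. The TEL-JAK2 arrays lay within 0.58 of each other and above every ICN1 array. The means were 9.96 ± 0.26 in TEL-JAK2 and 8.62 ± 0.64 in ICN1, a rise of 1.34 (SE 0.30, 95% interval 0.65 to 2.04, 2.54-fold, adjusted p 0.0161). It stayed called without any 1 array, at differences of 0.98 to 1.57 and adjusted p of 0.0141 to 0.0441. The beta chain gene of the same molecule, H2-Ob, measured 7.90, 8.47, 6.42 and 6.72 in TEL-JAK2, against 4.77, 7.69 and 4.24 in ICN1. ICN1 replicate 2 stood within the TEL-JAK2 values, and the difference of 1.81 was not called (adjusted p 0.193) unless that array was left out (2.87, adjusted p 0.0226).

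**Figure D4:**
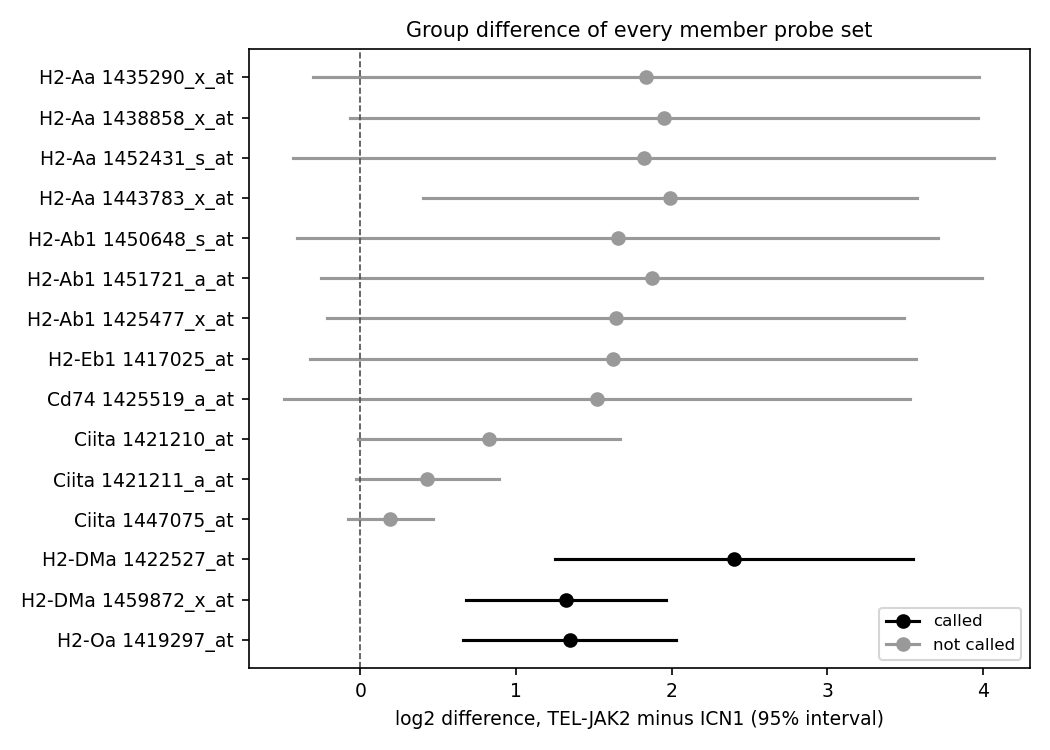
Difference in RMA log2 expression, TEL-JAK2 minus ICN1, for all 15 probe sets of the 7 measured genes, with 95% intervals from the limma fit over all probe sets; black marks the called probe sets and grey the others, and the dashed line marks no difference. The 3 called probe sets belong to H2-DMa and H2-Oa, and the 4 of H2-Aa differ by 1.82 to 1.99 with wide intervals.

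The remaining class II genes of the locus gave 0 calls among 4 measured, where 24.1% of all genes were called, with a median difference of 0.70. So few genes can show little either way. H2-DMb2, a beta chain gene of H2-DM, differed by 1.03 (adjusted p 0.170). It was 0.52 without ICN1 replicate 3, and 2.05 without ICN1 replicates 1 and 2, where only ICN1 replicate 3 stood for ICN1. H2-Eb2 differed by 0.37 (adjusted p 0.263), which became -0.25 when arrays were centred on the CD3 genes.

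Without ICN1 replicates 1 and 2, only ICN1 replicate 3 stood for ICN1, and it was assumed to vary like the TEL-JAK2 arrays. It was the lowest of the 7 arrays in all 15 probe sets, so every difference had to widen. The differences of the 7 genes in this fit were 1.39 (Ciita) to 4.17 (H2-Aa). A count of calls in this fit therefore shows nothing on its own, and the share beside it covers both directions. In that fit 5 of the 7 genes were called higher in TEL-JAK2 (H2-Aa, H2-Eb1, Cd74, H2-DMa and H2-Oa), against 14.3% of all genes called. Without ICN1 replicate 3, where ICN1 replicates 1 and 2 alone stood for ICN1, the difference was 0.67 for H2-Aa, 0.64 for H2-Ab1, 0.62 for H2-Eb1, 0.44 for Cd74, 0.54 for Ciita, 1.91 for H2-DMa and 0.98 for H2-Oa. H2-DMa and H2-Oa were called in the fit without ICN1 replicate 3, where 20.9% of all genes were called in either direction.

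Among 12 factors that act with CIITA at the promoter, 3 were higher and 2 lower in TEL-JAK2, with a median difference of 0.14, where 11.9% of all genes were called higher and 12.2% lower. Rfxank, a subunit of the RFX complex, measured 7.96, 8.11, 8.10 and 7.32 in TEL-JAK2, against 6.80, 6.57 and 6.65 in ICN1. All TEL-JAK2 arrays were above the ICN1 arrays, and the gene rose by 1.20 (SE 0.20, adjusted p 0.00583). That probe set ends in _s_at, which marks probes shared by several transcripts, and the other probe sets of Rfxank differed by 0.46 (adjusted p 0.141) and 0.39 (adjusted p 0.0991), so the call was lost when such probe sets were left out. The acetyltransferase gene Kat2b rose by 0.92 (adjusted p 0.00440), a call lost with the CD3 centring (0.30, adjusted p 0.0919), in which Rfxank alone was called higher and 5 of the factors lower. It too rests on such a probe set and was not called without it, its other probe sets differing by 0.70 (adjusted p 0.0580) and 0.57 (adjusted p 0.0572). Rfx5, the DNA-binding RFX subunit, rose by 0.52 (adjusted p 0.0237), but this turned to -0.11 when arrays were centred on the CD3 genes, and the call was lost in 6 of 7 fits without 1 array, all but that without TEL-JAK2 replicate 4 (adjusted p 0.0533 to 0.0751). The third RFX subunit gene, Rfxap, differed by -0.02 (adjusted p 0.965). The methyltransferase gene Carm1, a coactivator of CIITA, fell by 1.53 (adjusted p 0.00571). Its probe set also ends in _s_at, and Carm1 had no value when such probe sets were left out. Nfyb, a subunit of NF-Y, fell by 0.62 (adjusted p 0.0248), a call lost without TEL-JAK2 replicate 2, ICN1 replicate 1 or ICN1 replicate 3 (adjusted p 0.0508 to 0.0690) and with its probe sets averaged (-0.43, adjusted p 0.0675). Crebbp (0.27) and Smarca4 (0.26) were not called by their brightest probe sets, and both turned negative with the CD3 centring. A dimmer probe set of each was called, that of Crebbp at 0.54 (adjusted p 0.0133) and that of Smarca4 at 0.42 (adjusted p 0.0449), and the mean of its probe sets called Crebbp (0.50, adjusted p 0.0258).

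Of 11 measured regulators of Ciita transcription, 1 rose and 3 fell, with a median difference of 0.10, against 11.9% of all genes called higher and 12.2% lower. The CD3 centring gave 0 called higher and 4 lower. Irf1, which acts at the interferon-inducible Ciita promoter, was at 10.81, 11.81, 10.62 and 10.93 in TEL-JAK2, against 9.80, 9.30 and 9.77 in ICN1, and rose by 1.42 (adjusted p 0.0121; 0.80 and 0.0574 with the CD3 centring). Irf8, a factor of dendritic cell and B cell development, measured 9.92, 10.89, 8.39 and 9.65 in TEL-JAK2, against 8.67, 8.44 and 6.85 in ICN1. Its difference of 1.72 was not called (adjusted p 0.0984) except without TEL-JAK2 replicate 3 (adjusted p 0.0409). The factor gene Myc fell by 1.16 (adjusted p 0.0139) and Ezh2, the histone methyltransferase of PRC2, by 0.72 (adjusted p 0.00988). Irf4 fell by 2.45 (adjusted p 0.0308), but it kept its call only without TEL-JAK2 replicate 2 or ICN1 replicate 2, and adjusted p was 0.0618 to 0.0916 without any other array. Prdm1, a repressor of Ciita in plasma cells, differed by 1.04 (adjusted p 0.308). That difference rests on TEL-JAK2 replicate 2, at 7.54 where the other TEL-JAK2 arrays were at 4.65 to 5.64 and the ICN1 arrays at 4.45 to 4.93, and it was 0.42 without that array.

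Interferon gamma is the best-known inducer of Ciita, and 5 of 7 measured genes of its receptor pathway rose while 0 fell, with a median difference of 1.42, where 11.9% of all genes were called higher. With the CD3 centring only Ifngr1 and Socs1 of these were called, 2 of 7. The receptor gene Ifngr1 was at 13.13, 12.94, 13.10 and 12.87 in TEL-JAK2, against 9.57, 10.80 and 9.58 in ICN1, a rise of 3.03 (adjusted p 0.000619). Socs1, which inhibits JAK kinases and is induced by their signals, rose by 3.64 (adjusted p 4e-05), Ifngr2 by 0.88 (adjusted p 0.00771) and Jak1 by 0.91 (adjusted p 0.0167), and Irf1 is also in this list. The CD3 centring left Ifngr2 at 0.26 (adjusted p 0.258) and Jak1 at 0.29 (adjusted p 0.167). By its brightest probe set Jak2 differed by 0.52 (adjusted p 0.179), which became -0.10 with the CD3 centring, and was called without ICN1 replicate 1 (adjusted p 0.00816). Its other probe set, nearly as bright, was called at 1.34 (adjusted p 0.00923), and with the probe sets averaged Jak2 was called (0.93, adjusted p 0.0304), making 6 of 7 genes of the pathway. The TEL-JAK2 fusion carries the JAK2 kinase, and whether either probe set also reads the fusion transcript was not tested. Transcript of the cytokine itself, Ifng, measured 3.70, 10.24, 3.71 and 7.98 in TEL-JAK2, against 3.98, 3.43 and 3.74 in ICN1. It was high on TEL-JAK2 replicates 2 and 4 and at the ICN1 level on TEL-JAK2 replicates 1 and 3, and the difference of 2.69 was not called (adjusted p 0.278). TEL-JAK2 replicates 2 and 4 were also the higher TEL-JAK2 arrays for H2-DMa. The level of H2-Aa on TEL-JAK2 replicate 1 (12.83) was near that on TEL-JAK2 replicate 4 (13.02). Any link of Ifng to these levels was not tested.

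Nlrc5, the transactivator of MHC class I genes and a relative of CIITA, was at 10.20, 11.61, 10.13 and 10.86 in TEL-JAK2, against 7.98, 6.37 and 6.04 in ICN1, a rise of 3.91 (SE 0.54, adjusted p 0.00247). Nlrc5 minus Ciita was 3.94, 5.25, 5.05 and 5.06 on the TEL-JAK2 arrays, against 2.85, 0.84 and 1.55 on the ICN1 arrays, and the groups did not overlap. An exact two-sided permutation test gave p = 0.0571, the smallest that 35 arrangements allow, so it could not pass 0.05 whatever the values. These are different probe sets, and that of Ciita is near background, where RMA compresses differences. All 10 measured genes of class I presentation, Nlrc5 among them, rose, with a median difference of 1.31, where 11.9% of all genes were called higher. The number called was 7 to 10 when 1 array was left out, 5 with the CD3 centring, and 2 both against a 1.5-fold difference and with unequal variances. The list averaged 12.07, 12.58, 11.95 and 12.21 in TEL-JAK2, against 11.06, 10.82 and 10.46 in ICN1, so replicate 3 was the lowest of each group here too, but the groups did not overlap.

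Of 10 measured genes that prepare antigen for class II molecules or remove them from the surface, 1 rose and 3 fell, with a median difference of -0.36, against 11.9% of all genes called higher and 12.2% lower. With the CD3 centring 0 rose and 5 fell. Marchf8, a ubiquitin ligase that removes proteins such as class II molecules from the cell surface, measured 4.13, 4.46, 4.14 and 4.69 in TEL-JAK2, against 9.74 to 10.08 in ICN1, and fell by 5.59 (adjusted p 2.07e-06). The groups were more than 5 units apart on every array. The protease gene Ctsb fell by 1.13 (adjusted p 0.00582). Lgmn, an asparaginyl endopeptidase, fell by 2.99 (adjusted p 0.0217), a call lost without TEL-JAK2 replicate 1 or any 1 ICN1 array (adjusted p 0.0518 to 0.0674). Ctsl, which degrades the invariant chain in thymic cortical epithelium, rose by 1.28 (adjusted p 0.0434), a call kept only without TEL-JAK2 replicate 4 and lost without each other array (adjusted p 0.0545 to 0.118) or with the CD3 centring (0.65, adjusted p 0.0634). Ifi30, a lysosomal thiol reductase gene, differed by -0.96 (adjusted p 0.335) and Marchf1, a ligase that acts on class II in dendritic cells, by -0.61 (adjusted p 0.354), which was called lower with the CD3 centring (-1.23, adjusted p 0.0236).

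CD74 is also a surface receptor for the cytokine MIF, and of 6 genes of that complex 1 rose and 3 fell (median difference -0.64), against 11.9% of all genes called higher and 12.2% lower. After CD3 centring 0 rose and 5 fell, all but Ddt. The coreceptor gene Cd44 measured 7.52, 8.53, 5.95 and 8.80 in TEL-JAK2, against 10.25, 10.32 and 11.12 in ICN1, and fell by 2.86 (adjusted p 0.0195), a call lost without TEL-JAK2 replicate 1 or ICN1 replicate 3 (adjusted p 0.0543 and 0.0622). Cxcr4 fell by 0.82 (adjusted p 0.0365) and Ackr3 by 1.49 (adjusted p 0.0404). Each kept its call in only 2 of 7 fits without 1 array. Cxcr4 kept it without TEL-JAK2 replicate 3 or ICN1 replicate 1 (adjusted p 0.0539 to 0.0945 otherwise), and Ackr3 without TEL-JAK2 replicate 4 or ICN1 replicate 3 (0.0934 to 0.112 otherwise). Ddt, a relative of MIF, rose by 0.41 (adjusted p 0.0193), which became -0.21 with the CD3 centring and was not called without TEL-JAK2 replicate 1, ICN1 replicate 1 or ICN1 replicate 2 (adjusted p 0.0522 to 0.0667). Mif itself differed by -0.45 (adjusted p 0.199) and Cxcr2 by 0.05 (adjusted p 0.789), which turned to -0.58 with the CD3 centring, where both were called (adjusted p 0.0166 for Mif and 0.0156 for Cxcr2).

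Because class II genes mark antigen-presenting cells, and in a bulk suspension fewer cells of a type cannot be told apart from less RNA per cell, marker lists of such cells are given by array. The 13 measured dendritic cell markers averaged 7.01, 7.28, 5.96 and 7.01 in TEL-JAK2, against 6.14, 5.95 and 5.43 in ICN1. As with the class II chains, TEL-JAK2 replicate 3 and ICN1 replicate 3 were the lowest of their groups. Bst2 (1.76, adjusted p 0.00123) and Clec10a (1.45, adjusted p 0.0161) were called higher, 2 of 13 markers with a median difference of 0.93, against 11.9% of all genes called higher. Bst2 was called higher and Zbtb46 lower with the CD3 centring. Clec10a was not called then (0.83, adjusted p 0.0732) or without ICN1 replicate 2 or 3 (adjusted p 0.0507 and 0.0526). It was a dim gene, under the median gene in mean level. With dim genes left out 6 of the 13 markers remained, and Bst2 alone was called. Without TEL-JAK2 replicate 3, 8 of the 13 were called higher, where 1684 of all 18193 genes were called higher and 19.0% were called in either direction. In that fit the difference of the list averages had to widen, because the array left out was the lowest TEL-JAK2 array of this list. Fscn1, the actin bundler of mature dendritic cells, measured 8.16, 10.01, 5.34 and 9.70 in TEL-JAK2, against 6.56, 5.17 and 4.17 in ICN1, and of the fits that left out 1 array it was called only in that one (adjusted p 0.105 over all arrays and 0.0132 without TEL-JAK2 replicate 3). Naaa, an acid amidase gene, differed by 1.35 (adjusted p 0.111). Of the fits that left out 1 array it too was called only without TEL-JAK2 replicate 3 (adjusted p 0.00669). A dimmer probe set of Naaa was called over all arrays (1.18, adjusted p 0.00405). By contrast Zbtb46, a factor of conventional dendritic cells, stayed at 5.13 to 5.51 in TEL-JAK2 and 5.29 to 5.56 in ICN1. Its difference was -0.10 (adjusted p 0.606), and -0.72 (adjusted p 0.00821) with the CD3 centring.

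The 12 measured B-lineage markers averaged 7.35, 7.66, 6.51 and 6.47 in TEL-JAK2, against 6.49, 7.52 and 5.96 in ICN1. They were high on TEL-JAK2 replicates 1 and 2 and on ICN1 replicate 2, the ICN1 array with the highest H2-Ob. Ms4a1, which encodes CD20, was at 7.41, 8.53, 5.71 and 6.52 in TEL-JAK2 and 6.51, 8.14 and 4.62 in ICN1 (difference 0.62, adjusted p 0.682), and the difference turned to -0.28 without ICN1 replicate 3. The brightest, Ighm, the heavy chain gene of IgM, differed by -0.43 (adjusted p 0.612; -1.05 and 0.0480 with the CD3 centring). Of its other probe sets, 5 differed by -3.54 to -2.34 (adjusted p 0.144 to 0.270), none of them called, and the mean of all its probe sets differed by -1.56 (adjusted p 0.184). Vpreb1, a surrogate light chain gene, was the 1 marker of 12 called higher, against 11.9% of all genes, where the median difference of the list was 0.06 (2.28, adjusted p 0.0193), except without TEL-JAK2 replicate 3 or ICN1 replicate 1 (adjusted p 0.0505 and 0.0642). It was still called with the CD3 centring, where 2 markers were called lower, Ighm among them. Vpreb1 was itself a dim gene, and with dim genes left out 7 of the 12 markers remained and 0 were called.

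Monocyte and macrophage markers went the other way, averaging 6.81, 8.13, 6.13 and 8.29 in TEL-JAK2, against 9.83, 9.60 and 8.49 in ICN1. TEL-JAK2 replicate 3 and ICN1 replicate 3 were again the lowest of their groups. Of 13 measured markers 0 rose and 6 fell (median difference -1.86), where 12.2% of all genes were called lower, and 11 fell with the CD3 centring. The 6 included Mertk (fell by 2.95, adjusted p 0.00368), Axl (fell by 2.36, adjusted p 0.00505) and Vcam1 (fell by 4.79, adjusted p 0.0157). Of the brightest markers, Csf1r, the macrophage growth factor receptor gene, fell by 2.59 (adjusted p 0.0302; 0.0792 to 0.0982 without TEL-JAK2 replicate 1, ICN1 replicate 1 or ICN1 replicate 2), and Lyz2 differed by 0.31 (adjusted p 0.673), which became -0.31 with the CD3 centring. The number called lower was 2 (Mertk and Axl) without ICN1 replicate 1 or ICN1 replicate 2 and 3 (with Vcam1) without TEL-JAK2 replicate 1, and Mertk and Axl were called in each of the 7 fits without 1 array.

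The 11 thymic epithelial markers averaged 6.13, 6.02, 5.82 and 6.27 in TEL-JAK2, against 5.30, 5.11 and 5.17 in ICN1, with 3 called higher and a median difference of 0.33, where 11.9% of all genes were called higher. The CD3 centring gave 1 called higher, Epcam, and 2 lower, Psmb11 among them. With dim genes left out 2 of the 11 markers remained, and Epcam alone was called. Its difference was far above the median of the list, so it weighed heavily in the averages of the list. Epcam, an adhesion molecule gene, was at 11.77, 11.04, 11.21 and 9.67 in TEL-JAK2, against 5.27, 4.63 and 4.43 in ICN1 (difference 6.15, adjusted p 0.000216). The thymic epithelial master factor gene Foxn1 lay below the array medians, at 4.70 to 4.94 in TEL-JAK2 and 4.45 to 4.63 in ICN1, as did Psmb11, the thymoproteasome subunit gene, at 3.76 to 4.23 in TEL-JAK2 and 3.71 to 4.09 in ICN1 (difference 0.04, adjusted p 0.880; -0.58 and 0.0244 with the CD3 centring). Foxn1 was called (0.33, adjusted p 0.0497), but its difference turned to -0.29 with the CD3 centring and its call was kept only without TEL-JAK2 replicate 2 (adjusted p 0.0517 to 0.140 otherwise). Aire, which drives self-antigen expression in thymic epithelium, was called (0.87, adjusted p 0.0476) and kept the call only without TEL-JAK2 replicate 3 or 4 (adjusted p 0.0589 to 0.119 otherwise; 0.25 and 0.499 with the CD3 centring). The part of any of these cell types in the class II values was not tested.

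**Figure D5:**
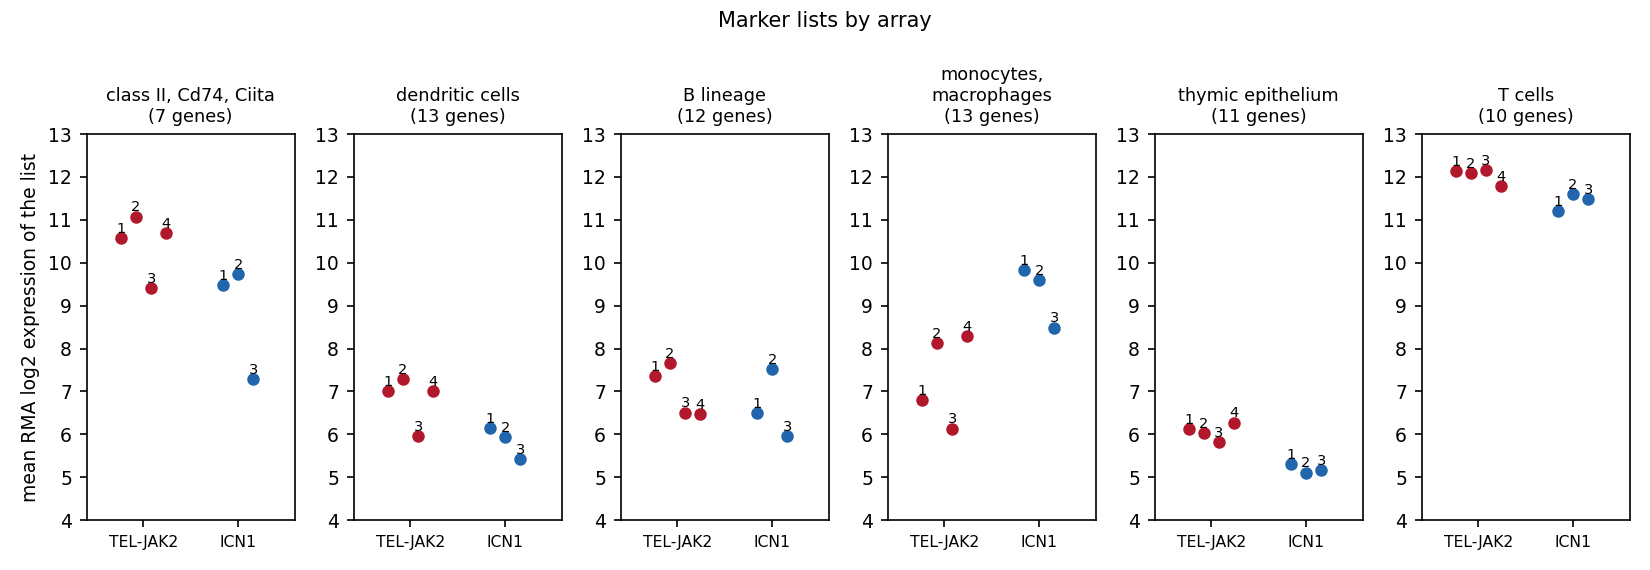
Mean RMA log2 expression by array of the 7 measured class II genes, Cd74 and Ciita together and of 5 lists of cell type markers, with the 4 TEL-JAK2 arrays (red) left of the 3 ICN1 arrays (blue) and points numbered by replicate. Replicate 3 is the lowest of each group for the class II genes, for dendritic cells and for monocytes and macrophages, and T-cell markers vary by less than 1 unit over the 7 arrays.

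To find the genes whose pattern over the arrays was most like that of the class II chains, each of the 18193 genes was centred on its own mean and set against the mean centred profile of H2-Aa, H2-Ab1 and H2-Eb1. Likeness was the root-mean-square distance over the 7 arrays, given in log2 units, and a flat gene would lie at 1.45. Cd74, which had no part in that profile, was the closest gene outside it (0.140). H2-DMa ranked 34 (0.827), H2-Oa 45 (0.860) and Ciita 61 (0.899). Among genes not listed at the outset the closest was Id2, an inhibitor of E proteins needed for dendritic cell and innate lymphoid development, at a distance of 0.298. It measured 10.46, 10.92, 9.12 and 10.73 in TEL-JAK2, against 9.75, 10.15 and 7.26 in ICN1, so it too was low on replicate 3 of each group. Next came Napsa, an aspartic protease gene (0.508), E330020D12Rik (0.528), Irf8 (0.544), Coro2a, a coronin gene (0.554), and Wdfy4, needed for cross-presentation by dendritic cells (0.594). Plek, the pleckstrin gene (0.667), Alox5ap, a helper of leukotriene synthesis (0.720), Rnase6, a ribonuclease gene (0.721), and Gpr83, a receptor gene (0.726), completed the 10 closest. Over all 7 arrays none of these 10 genes was called between the groups, where 24.1% of all genes were, but they were picked for likeness to a profile that was itself not called and varied widely within groups. An adjusted p under 0.05 was reached in 1 fit each that left out an array by E330020D12Rik (0.0350 without ICN1 replicate 2), Irf8 (0.0409 without TEL-JAK2 replicate 3), Rnase6 (0.0294 without TEL-JAK2 replicate 3) and Gpr83 (0.0352 without ICN1 replicate 1). Without ICN1 replicates 1 and 2, only ICN1 replicate 3 stood for ICN1, the lowest array of the profile by which these genes were picked. Their differences, 1.01 (Alox5ap) to 2.21 (Gpr83) over all arrays, therefore had to widen, and were 2.00 (Rnase6) to 3.78 (Gpr83) in that fit. Gpr83 reached an adjusted p under 0.05 with the CD3 centring (0.0432) and with its probe sets averaged (0.0377).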

How the data were processed

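The authors deposited a single table of log2 expression values for every probe set and array. The submitters' processing notes name RMA, which subtracts background, brings arrays to a common distribution and combines the probes of a probe set, without a version. Folds near background are compressed by it. The number of arrays (4 TEL-JAK2, 3 ICN1) limits the precision, and no detection call or scan date was used here. Values spanned 2.57 to 14.86 and were taken as deposited. Replicates were numbered in accession order.

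The platform annotation gave 34945 of 45037 probe sets 1 symbol, 932 several and 9160 none, and 34741 of the first kind matched a RefSeq gene table (GRCm38.p6, 0 symbols updated). Each gene was taken by its brightest probe set, judged over the 7 arrays (18193 genes). The fit was limma 3.58.1 (R 4.3.3; lmFit, eBayes, two-sided, TEL-JAK2 minus ICN1, 95% intervals), adjusted by Benjamini-Hochberg over all genes or all probe sets, with calls at an adjusted p under 0.05. Simulated arrays of the 18193 genes in this design tested the fit: 67 of 100 changes of 1 log2 and 92 of 100 changes of 2 log2 were recovered, beside 11 false calls.

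The genes and the 12 lists were chosen with earlier results of these data known, and list counts support nothing on their own. The naming rule, which allows more genes than are named, covered the listed class II genes with each probe set, Nlrc5, the 10 nearest profiles, all genes behind a count that does not exceed 5 and, per list, up to 4 called genes with the smallest adjusted p, up to 2 uncalled genes with the largest difference and the brightest markers. Zbtb46, Psmb11 and Ms4a1 were added once their values were known. List members without a probe set of 1 symbol were not analysed here.

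As alternatives, probe sets of a gene were averaged; probe sets ending in _x_at or _s_at, or dim genes, were left out; arrays were rescaled 4 ways (quantile, median, cyclic loess, or centred on Cd3d, Cd3e, Cd3g and Cd247); limma was run with a robust variance trend, with array weights and against a 1.5-fold threshold; variances were allowed to differ; the threshold was set at 0.01; and each array, or ICN1 replicates 1 and 2 together, was left out. An offset for linear values was not needed. Figures were drawn with matplotlib 3.10.9.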

Additional observations from a re-analysis of the deposited data

Results flagged for a closer look

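Within the 4 TEL-JAK2 arrays, 3 of 82 profiles of the listed genes and other named genes had 1 array far from the other 3, by Dixon's ratio of its gap to the whole range at the 95% level, where chance gives about 1 in 20 groups. None of the 3 was a class II gene or Ciita. Kat2b was at 10.12 on TEL-JAK2 replicate 4 and at 10.40 to 10.44 on the other TEL-JAK2 arrays. Smarca4 was at 10.85 on TEL-JAK2 replicate 2 and at 11.13 to 11.18 on the others. Ackr3 was at 4.30 on TEL-JAK2 replicate 4 and at 3.42 to 3.46 on the others. The low class II values of TEL-JAK2 replicate 3 did not pass this limit, and groups of 3 arrays, such as ICN1, were not tested in this way.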

How the results depend on the processing

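No paired analysis was possible because the labels give no replicate numbers shared between the groups. Of 138 alternative values for the 7 class II genes, Cd74 and Ciita included, 128 kept direction and call, 6 lost a call, 4 gained one and 0 changed sign; for the other named genes 1098 of 1325 kept both, 172 lost a call, 28 gained one and 27 changed sign. Of 33 other named genes called over all arrays, 23 kept the call with the CD3 centring, 9 against 1.5-fold, 5 with unequal variances and 14 without ICN1 replicates 1 and 2. With 1 array left out, the differences of 32 of 39 uncalled genes named, class II genes included, moved by over 1.5 times or changed sign, and those of 0 of 35 called genes did. The count of called genes, 2 of 7 (3 of 15 probe sets), was 0 of 7 (0 of 15) against a 1.5-fold difference, with unequal variances and at an adjusted p under 0.01. It was 2 to 3 (3 to 4 probe sets) when 1 array was left out. Over the table, 4380 genes were called; 12197 with the CD3 centring, which shifts every difference by -0.62 and leaves 787 of them higher (6.45% against 49.4% of calls), 1187 against 1.5-fold, 1632 with unequal variances, 2191 at the stricter threshold, 2596 without ICN1 replicates 1 and 2, and 3209 to 4236 with 1 array left out. The difference of Nlrc5 minus that of Ciita was 2.63 to 3.63 when 1 array was left out. The CD3 centring reversed H2-Eb2 (-0.25), H2-Ea (-0.38), Rfx5 (-0.11), Smarca4 (-0.36), Crebbp (-0.36), Jak2 (-0.10), Ddt (-0.21), Cxcr2 (-0.58), Lyz2 (-0.31), Foxn1 (-0.29), Ms4a1 (-0.0022), Psmb11 (-0.58) and the Ciita probe sets 1421211_a_at (-0.19) and 1447075_at (-0.43), by the shift itself. Rfxap, near 0, reversed with quantile normalization (0.026) and array weights (0.14), and ranged from -0.20 to 0.31 with 1 array left out, being above 0 without TEL-JAK2 replicate 4 (0.10) or ICN1 replicate 3 (0.31). Without ICN1 replicates 1 and 2, Smarca4 (-0.019), Marchf1 (0.32), Ighm (0.28), Lyz2 (-0.0055), Zbtb46 (0.012) and Psmb11 (-0.10) reversed, as Zbtb46 did with averaged probe sets (0.0068), and Ighm ranged from -0.78 to 0.016 (without TEL-JAK2 replicate 4) with 1 array left out, Ms4a1 from -0.28 (without ICN1 replicate 3) to 1.48 and Psmb11 from -0.076 to 0.11, below 0 without TEL-JAK2 replicate 3 (-0.0421) or ICN1 replicate 2 (-0.076); the cause was not tested. H2-Aa has no value without cross-hybridizing probe sets and Ciita none without dim genes. Signal near background limits the Ciita probe sets, and no setting removes the tie between genotype and tissue.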
